A study of Mus musculus with 6 samples.

Results

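The BCL2 family decides whether a cell's mitochondria release the proteins that start apoptosis. Described here are 10 of its genes among the 55401 gene identifiers counted in mouse embryonic stem (ES) cells: the anti-apoptotic members Bcl2, Bcl2l1 and Mcl1, the effectors Bax, Bak1 and Bok, and the BH3-only members Bbc3, Pmaip1, Bcl2l11 and Bmf. They were chosen by gene symbol and each matched 1 Ensembl identifier. Polyadenylated RNA was sequenced from 3 libraries labelled KO, whose cells received doxycycline, and from 3 libraries of untreated cells whose label is 3XHA-Taf13 expression. Culture with or without the drug lasted 7 days, and each library came from its own dish. TAF13 belongs to TFIID, which binds core promoters and helps to place RNA polymerase II there. The sources used here give neither the strain and clone nor the allele behind the KO label or the promoter that drives 3XHA-Taf13. The drug and the KO label always occur together, so their effects cannot be told apart.

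Apoptosis through mitochondria begins when BAX or BAK oligomerise and open the outer membrane, which lets cytochrome c reach the cytosol. Anti-apoptotic members hold the effectors and the BH3-only proteins in a groove on their surface, and BH3-only proteins carry the single BH3 helix that fills this groove. The BH3-only proteins differ in their partners: NOXA, the product of Pmaip1, binds chiefly MCL1, whereas BIM and PUMA, the products of Bcl2l11 and Bbc3, bind every major anti-apoptotic member. Embryonic stem cells are known to be poised for apoptosis and to depend on MCL1 and BCL-XL for survival.

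Total counts ran from 33953189 to 50328010 in the libraries labelled KO and from 31219328 to 45957003 in the expressing libraries. Levels are given as CPM, the read count scaled to library size. Taf13 itself was at 13.2 ± 1.02 CPM (SD, n = 3) in the libraries labelled KO and 10.05 ± 2.21 CPM (SD, n = 3) in the expressing libraries (log2 fold change 0.40, SE 0.147, edgeR adjusted p = 0.0578), and reads of the tagged and the chromosomal gene are not separated, so it does not check the labels. Expressing replicate 1 stood apart. The chi-square per degree of freedom between its counts and those of the other expressing libraries was 37.2 and 29.8, while the remaining pairs within a group gave at most 6.29. The 8 ES cell markers summed to between 2313 and 2334 CPM in the libraries labelled KO and between 3468 and 3616 CPM in the expressing libraries, and 8 of 8 were lower (edgeR). The 9 primitive endoderm markers summed to between 410.5 and 449.7 CPM in the libraries labelled KO and between 79.2 and 89.7 CPM in the expressing libraries, and 9 of 9 were higher. The 7 fibroblast markers summed to 93.6, 177 and 94.4 CPM in KO replicates 1 to 3 and to between 104 and 133 CPM in the expressing libraries, with 1 higher and 1 lower, so KO replicate 2 stood apart in these genes. Blood markers summed to at most 1.06 CPM in the libraries labelled KO and 1.22 CPM in the expressing libraries, with Hbb-bs at 0 in each. The part of these cell type shifts in the values below was not tested, and in bulk RNA fewer cells of a type cannot be told apart from less RNA per cell.

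Of the 10 members, each of which had enough counts to be tested, 2 rose (Bcl2l1 and Pmaip1), 3 fell (Mcl1, Bcl2l11 and Bmf) and 5 did not pass the test in the libraries labelled KO (edgeR's quasi-likelihood test, p adjusted by Benjamini-Hochberg over 17778 genes, threshold 0.05). The background was high: 40% of all tested genes passed, 19.2% as higher and 20.8% as lower, so a count of 5 in 10 is close to the share among all genes. The 2 groups of libraries did not overlap in CPM for the same 5 members, against 53.5% of all tested genes (26.4% with every library labelled KO higher and 27.1% with every one lower). The median log2 fold change of the members was -0.07, beside -0.01 over all tested genes, and their median absolute change was 0.237, beside 0.285. Changes went in both directions among the anti-apoptotic members and among the BH3-only members, while 0 of 3 effectors passed in edgeR (0 by DESeq2, and 0 with the unadjusted p under 0.05). When library totals alone set the scale, which moved the median of all genes to 0.08, the same 5 members passed in the same directions, and 63.5% of all called genes were then higher, against 48.1% with the scaling used here.

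**Figure D1:**
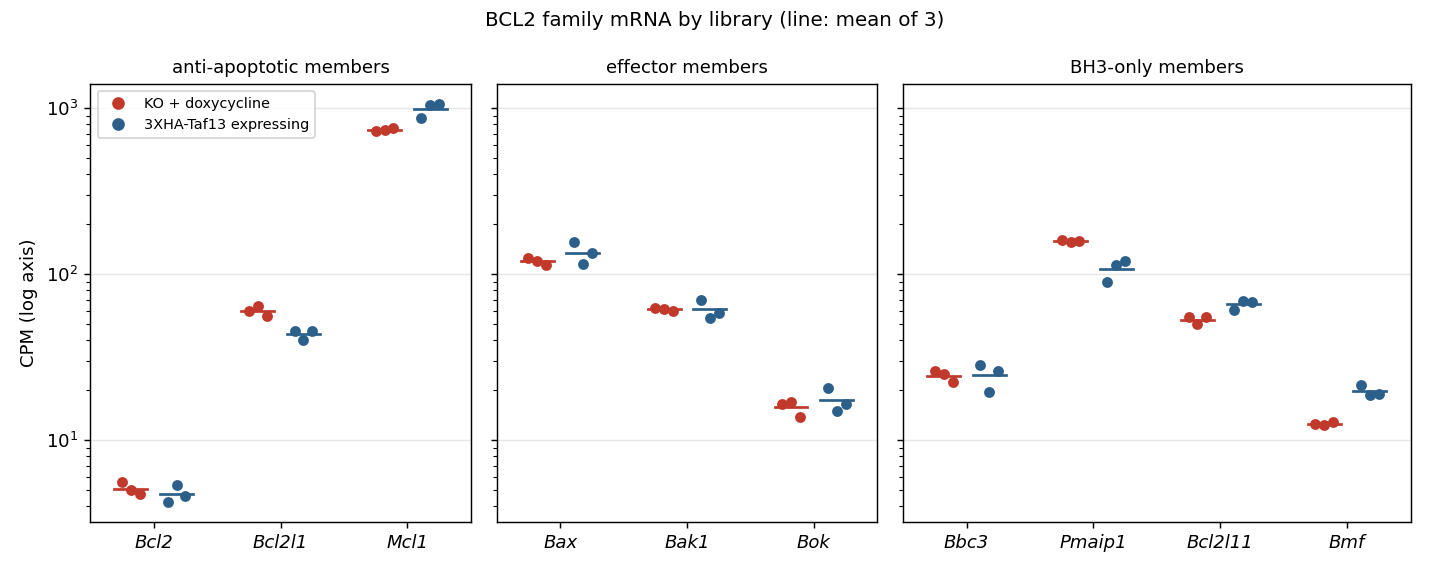
CPM (read counts scaled to library size, log axis) of the 10 members in each library, with the 3 libraries labelled KO in red to the left of the 3 expressing libraries in blue, points for libraries and lines for their means. The red and blue points separate for Bcl2l1, Mcl1, Pmaip1, Bcl2l11 and Bmf and overlap for the other 5 members.

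Mcl1 (ENSMUSG00000038612; chromosome 3, 95658788 to 95663176, plus strand, mm10) encodes a short-lived anti-apoptotic protein that restrains BAK and binds NOXA tightly. It stood at 729, 739 and 754 CPM in the libraries labelled KO and at 868, 1043 and 1063 CPM in the expressing libraries. Every library labelled KO lay below every expressing library. Mean levels were 741 ± 12.9 CPM in the libraries labelled KO and 991 ± 108 CPM in the expressing libraries (SD, n = 3 each), a log2 fold change of -0.42 (SE 0.0770, edgeR adjusted p = 0.00223), or -25.3% with a 95% interval from -33.7% to -15.8%. Without expressing replicate 1, the lowest of the expressing libraries, the log2 fold change was -0.48.

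Bcl2l1 (ENSMUSG00000007659; chromosome 2, 152780668 to 152831728, minus strand) encodes BCL-XL and, from a shorter splice form, BCL-XS, which the counts per gene do not separate. It stood at 60.0, 64.5 and 56.3 CPM in the libraries labelled KO and at 45.6, 40.3 and 45.6 CPM in the expressing libraries. The groups did not overlap, and the change ran opposite to that of Mcl1. The means were 60.3 ± 4.09 CPM in the libraries labelled KO and 43.8 ± 3.05 CPM in the expressing libraries (SD, n = 3 each; log2 fold change 0.46, SE 0.0784, edgeR adjusted p = 0.00152), which is 37.5% more with a 95% interval from 21.7% to 55.4%.

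Bcl2 (ENSMUSG00000057329; chromosome 1, 106538178 to 106714274, minus strand), the founding member of the family, was the least abundant of the 10 in CPM per kilobase of exon. It stood at 5.62, 4.99 and 4.75 CPM in the libraries labelled KO and at 4.26, 5.38 and 4.63 CPM in the expressing libraries, on counts of 133 to 245. The groups overlapped, and the log2 fold change of 0.10 (SE 0.128, edgeR adjusted p = 0.583) had a 95% interval from -12.4% to 30.4%. An overlapping antisense gene, D630008O14Rik, shares 558 exonic bases with Bcl2 and had 0 counts in each of the 6 libraries. That count does not show that the overlap took no reads, so Bcl2 is uncertain to that extent.

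Promoter sequence is shown for the 4 members that passed the test and have an entry in the RefSeq table (GRCm38.p6, the assembly that mm10 names). It gives 9 of the 10 members at least 1 start, and 16 windows in all. Each sequence is the 250 bases before the annotated start nearest the gene's first base, written 5′ to 3′ on the gene's strand, with capitals on matches to any of 6 short elements on either strand. Of 32851 RefSeq windows of this length, 12.4% held the TATA box spelled TATAAA, and 33.8% held the CCAAT box, whose letters are its name. The GC box, spelled GGGCGG, was in 32.7% of them. The E-box, spelled CACGTG, was in 6.02%. A FOXO element spelled GTAAACA was in 3.17%. The composite element of ATF4 and CHOP, spelled TGATGCAA, was in 0.791%. No matches overlapped in the 4 windows shown. The windows are chr3:95658471-95658720 on the plus strand for Mcl1 and chr2:152831729-152831978 on the minus strand for Bcl2l1.
Mcl1: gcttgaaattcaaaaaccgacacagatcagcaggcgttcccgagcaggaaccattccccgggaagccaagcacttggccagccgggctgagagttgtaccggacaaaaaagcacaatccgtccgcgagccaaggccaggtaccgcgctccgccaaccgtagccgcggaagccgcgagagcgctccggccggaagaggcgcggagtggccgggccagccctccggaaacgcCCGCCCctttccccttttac
Bcl2l1: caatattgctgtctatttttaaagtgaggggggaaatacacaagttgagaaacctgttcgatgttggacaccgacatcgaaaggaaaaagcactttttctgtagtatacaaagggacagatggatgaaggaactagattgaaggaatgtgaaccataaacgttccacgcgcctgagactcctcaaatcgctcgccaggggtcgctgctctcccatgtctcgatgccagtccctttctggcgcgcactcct
The Mcl1 window, with a GC content of 64.4%, held 1 GC box, on the opposite strand, ending 15 bases before the RefSeq start. That window ends at 95658720, short of the gene's first base at 95658788. The Bcl2l1 window, at 47.6% GC, held none of the 6 elements, and neither did the windows of its other 2 RefSeq starts. A match is a run of letters and not a shown binding site, and reads per start were not separated.

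Among the effectors, no member passed the test. Bax (ENSMUSG00000003873; chromosome 7, 45461697 to 45466898, minus strand), a p53 target whose protein moves from the cytosol to mitochondria, stood at 125, 120.0 and 114 CPM in the libraries labelled KO and at 155, 115 and 133 CPM in the expressing libraries. The groups overlapped. Its log2 fold change was -0.17 (SE 0.0984, edgeR adjusted p = 0.196), with a 95% interval from -23.8% to 3.55%. Without expressing replicate 2, the lowest expressing library, it was -0.27 and passed (edgeR adjusted p = 0.0253), and without expressing replicate 1, the highest, it was -0.03 (0.675).

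Bak1 (ENSMUSG00000057789; chromosome 17, 27019810 to 27029009, minus strand), whose protein sits in the mitochondrial outer membrane before apoptosis, stood at 62.6, 61.6 and 60.4 CPM in the libraries labelled KO and at 70.3, 54.7 and 58.7 CPM in the expressing libraries. The libraries labelled KO lay inside the range of the expressing ones. The log2 fold change was 0.01 (SE 0.0905, edgeR adjusted p = 0.954), with a 95% interval from -12.7% to 15.8%. Without expressing replicate 1, the highest of the 6, it was 0.15 and passed (edgeR adjusted p = 0.0151), so the Bak1 result rests on that library. Exons shared with other genes touch both: 192 bases of Bax lie in Gm45808 on the same strand, which had 0 counts, and 614 bases of Bak1 lie opposite Ggnbp1, whose 2 identifiers averaged 0.734 and 0.477 CPM in the libraries labelled KO and 1.001 and 0.404 CPM in the expressing libraries. The treatment of reads that fall on 2 genes is not given, so a count of 0 does not show that an overlap took no reads. Bax and Bak1 are uncertain to that extent. Bok (ENSMUSG00000026278; chromosome 1, 93685660 to 93695764, plus strand), a relative of BAX and BAK that anti-apoptotic members bind poorly, stood at 16.5, 16.9 and 13.9 CPM in the libraries labelled KO and at 20.7, 15.1 and 16.5 CPM in the expressing libraries. Bok, too, gave overlapping ranges (log2 fold change -0.14, SE 0.128, edgeR adjusted p = 0.404; 95% interval from -25.8% to 10.6%).

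Pmaip1 (ENSMUSG00000024521; chromosome 18, 66458533 to 66465565, plus strand) had the largest increase of the 10 members. It is a p53 target and can also be raised by ATF4. It stood at 160, 156 and 157 CPM in the libraries labelled KO and at 89.3, 114 and 119 CPM in the expressing libraries. The groups did not overlap. The means were 158 ± 1.84 CPM in the libraries labelled KO and 107 ± 15.8 CPM in the expressing libraries (SD, n = 3 each; log2 fold change 0.56, SE 0.0972, edgeR adjusted p = 0.00175), or 46.9% more with a 95% interval from 26.3% to 70.9%. Without expressing replicate 1, the lowest of the 6, the log2 fold change was 0.47 and still passed (edgeR adjusted p = 9.86e-12).

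Bmf (ENSMUSG00000040093; chromosome 2, 118528757 to 118549687, minus strand), whose protein can be held on motor complexes of the actin cytoskeleton, had the largest decrease. It stood at 12.5, 12.4 and 12.8 CPM in the libraries labelled KO and at 21.5, 18.6 and 19.1 CPM in the expressing libraries. No library labelled KO reached the lowest expressing one. The log2 fold change was -0.65 (SE 0.0847, edgeR adjusted p = 3.38e-04), which is -36.2% with a 95% interval from -44.1% to -27.2%.

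Bcl2l11 (ENSMUSG00000027381; chromosome 2, 128126038 to 128162547, plus strand), which encodes BIM and is known to be raised by FOXO factors, had the smallest change among the 5 that passed. It stood at 54.9, 49.97 and 54.9 CPM in the libraries labelled KO and at 60.8, 68.5 and 67.9 CPM in the expressing libraries. The groups did not overlap, and the log2 fold change was -0.30 (SE 0.0725, edgeR adjusted p = 0.00883), or -19% with a 95% interval from -27.6% to -9.31%. Without KO replicate 2, the lowest of the 6 for Bcl2l11 and the library with the highest fibroblast marker sum, it was -0.26 and just missed the threshold (edgeR adjusted p = 0.0517).

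Bbc3 (ENSMUSG00000002083; chromosome 7, 16308393 to 16318205, plus strand), which encodes PUMA, a p53-induced protein, stood at 25.9, 25.1 and 22.4 CPM in the libraries labelled KO and at 28.2, 19.5 and 26.1 CPM in the expressing libraries. The groups overlapped. The log2 fold change was -0.005 (SE 0.129, edgeR adjusted p = 0.98), with a 95% interval from -18.5% to 21.9%, so the p53 targets among the BH3-only members, Bbc3 and Pmaip1, gave different outcomes in the same test. The difference between their changes was not tested.

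The windows of the BH3-only members that fell are chr2:128125788-128126037 on the plus strand for Bcl2l11 and chr2:118549687-118549936 on the minus strand for Bmf, marked in the same way.
Bcl2l11: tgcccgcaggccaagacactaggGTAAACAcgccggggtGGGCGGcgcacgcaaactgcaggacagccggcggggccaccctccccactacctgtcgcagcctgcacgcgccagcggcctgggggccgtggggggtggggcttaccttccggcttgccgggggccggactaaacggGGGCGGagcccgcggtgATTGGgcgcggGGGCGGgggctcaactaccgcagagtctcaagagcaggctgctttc
Bmf: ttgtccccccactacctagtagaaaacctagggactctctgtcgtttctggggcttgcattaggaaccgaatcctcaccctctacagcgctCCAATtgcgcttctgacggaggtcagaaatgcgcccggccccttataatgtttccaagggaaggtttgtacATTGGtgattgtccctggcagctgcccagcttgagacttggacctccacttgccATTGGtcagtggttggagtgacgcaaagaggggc
Bcl2l11 held 3 GC boxes, 1 CCAAT box on the opposite strand and 1 FOXO element that ends 221 bases before the start. Bmf held 3 CCAAT boxes, 2 of them on the opposite strand, and no GC box. For each of the 9 members with an entry, the window nearest the gene's first base held no TATAAA run. A GC box was in 6 of the 9 and a CCAAT box in 2. Among all RefSeq windows the shares were 12.4%, 32.7% and 33.8% in that order, and those windows can hold several starts of the same gene. Of the 9 member windows, those of Bbc3 (chr7:16309333-16309582, plus strand) and Bak1 (chr17:27028628-27028877, minus strand) lie inside the annotated gene and not before its first base. Those of Mcl1, Bcl2 and Bok end before the gene's first base without reaching it.

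**Figure D2:**
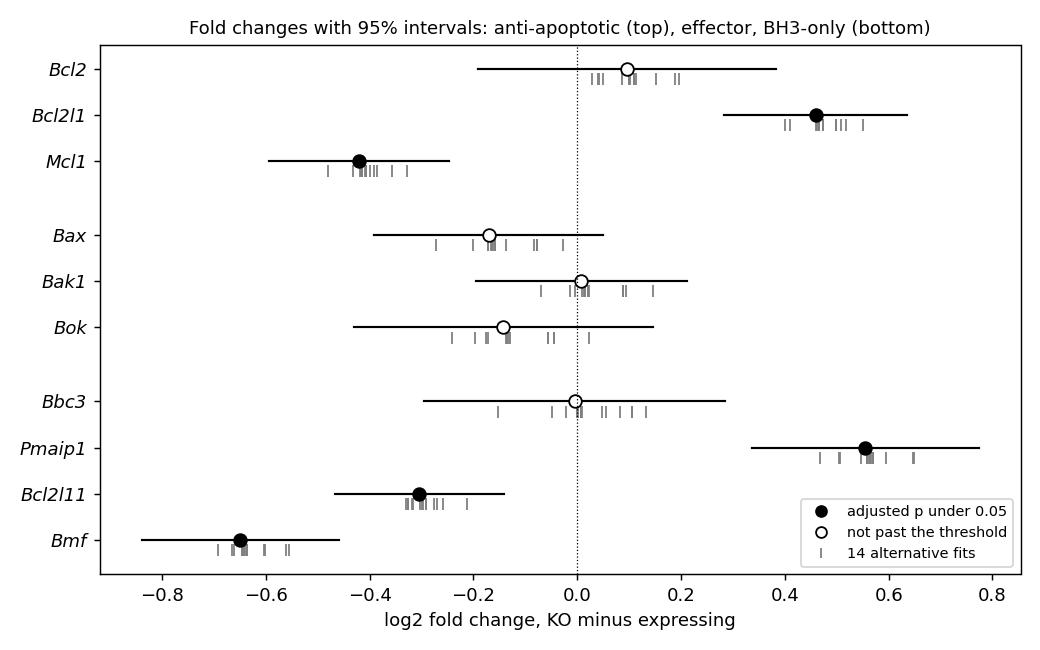
Log2 fold change (libraries labelled KO minus expressing libraries) of each member with its 95% interval from edgeR, filled where the adjusted p is under 0.05, and grey ticks for 14 alternative fits. Bcl2l1 (0.46) and Pmaip1 (0.56) lie to the right of 0, Mcl1 (-0.42), Bcl2l11 (-0.30) and Bmf (-0.65) to the left, and the ticks of these 5 stay on their side.

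For levels between genes, CPM was divided by the merged exon length of each gene, giving CPM per kilobase. In the libraries labelled KO the order was Mcl1 (217), Bax (75.9), Pmaip1 (57.7), Bak1 (25.6), Bcl2l1 (13.1), Bbc3 (11.5), Bok (8.56), Bcl2l11 (6.63), Bmf (2.40) and Bcl2 (0.559 CPM per kilobase), and no neighbours in it overlapped between libraries. In the expressing libraries the order was Mcl1 (290), Bax (85.4), Pmaip1 (39.3), Bak1 (25.4), Bbc3 (11.6), Bcl2l1 (9.56), Bok (9.47), Bcl2l11 (8.19), Bmf (3.76) and Bcl2 (0.519 CPM per kilobase). There the libraries of Bbc3 (9.19 to 13.3), Bcl2l1 (8.79 to 9.94), Bok (8.20 to 11.2) and Bcl2l11 (7.58 to 8.53) overlapped from each neighbour to the next, so their order is not resolved. The length of the longest transcript in place of merged exons exchanged the places of Bbc3 and Bcl2l1, and of Bok and Bcl2l11, in the expressing libraries. By merged exons, Mcl1 made up 94.1% of the summed level of the anti-apoptotic members in the libraries labelled KO and 96.6% in the expressing libraries. Bcl2 made up 0.243% and 0.173%. That sum leaves out the anti-apoptotic Bcl2l2, which is not a member here. With the longest transcript the share of Mcl1 was smaller, at 217 of 240.8 CPM per kilobase in the libraries labelled KO and 290 of 307.7 in the expressing libraries.

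Summed per class, the anti-apoptotic members reached 230.4 ± 3.32 CPM per kilobase in the libraries labelled KO and 300.1 ± 31.3 in the expressing libraries (SD, n = 3 each). The effectors reached 110.0 ± 4.56 in the libraries labelled KO and 120.3 ± 17.5 in the expressing libraries, and the 3 libraries labelled KO lay inside the range of the expressing ones. The BH3-only members reached 78.3 ± 1.39 in the libraries labelled KO and 62.8 ± 5.16 in the expressing libraries. Pmaip1 made up 73.7% and 62.5% of this sum. The sums hold only the 10 members. Of the BH3-only genes left out, Bid was at 14.05 CPM per kilobase in the libraries labelled KO and 17.11 in the expressing libraries. Bad was at 2.54 and 2.56, Bik at 1.69 and 2.01, and Hrk at 0.459 and 0.611, in the same order. The anti-apoptotic Bcl2l2, also left out, was at 4.705 and 3.886. Of the summed level of all 10 members, the anti-apoptotic class held 55% in the libraries labelled KO and 62.1% in the expressing libraries, and the BH3-only class 18.7% and 13%. These sums are descriptions of messenger RNA, with no test, since the members were chosen with results of these data known.

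**Figure D3:**
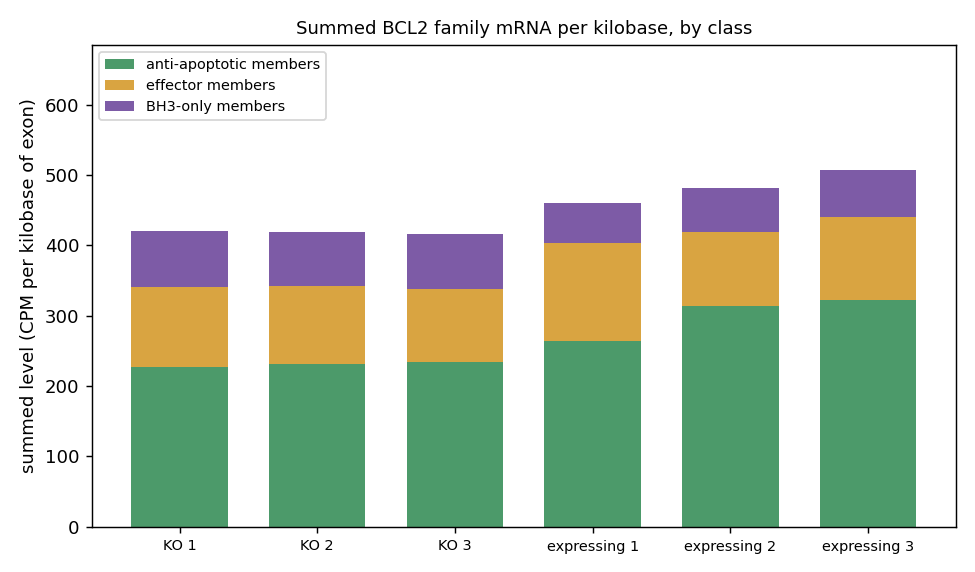
Summed level in CPM per kilobase of exon of the anti-apoptotic (green), effector (orange) and BH3-only (purple) members, stacked for each library, with those labelled KO on the left. The green part is between 226.9 and 233.5 in the libraries labelled KO and between 264 and 322 in the expressing libraries, and the purple part is between 77.4 and 79.9 in the libraries labelled KO and between 57.6 and 68.0 in the expressing libraries.

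Ratios within a library do not depend on how libraries are scaled, but their size depends on the length used for each gene. With the longest transcript, Bcl2l1 was at 23.5 CPM per kilobase in the libraries labelled KO and 17.1 in the expressing libraries. Mcl1 stayed at 217 and 290, so its ratio to Bcl2l1 was smaller in both groups. The comparison between groups is not affected, since a gene has the same length in every library. Merged exons are used below. The ratio of Mcl1 to Pmaip1 per kilobase was 3.65, 3.78 and 3.83 in the libraries labelled KO and 7.77, 7.34 and 7.14 in the expressing libraries. The ratio of Mcl1 to Bcl2l1 was 16.3, 15.4 and 18 in the libraries labelled KO and 25.5, 34.7 and 31.3 in the expressing libraries. Both ratios were lower in every library labelled KO, and both set Mcl1 against a member already called in the opposite direction. The ratio of Mcl1 to Bax overlapped between groups, at 2.70, 2.84 and 3.05 in the libraries labelled KO and 2.58, 4.16 and 3.68 in the expressing libraries. The ratio of Bcl2l1 to Bax was 0.166, 0.185 and 0.170 in the libraries labelled KO and 0.101, 0.120 and 0.118 in the expressing libraries, also without overlap. The ratio of Bcl2 to Bax, which is often quoted for these genes, was 0.00736 ± 0.000347 in the libraries labelled KO and 0.00624 ± 0.00166 in the expressing libraries (SD, n = 3 each), with overlapping libraries. Expressing replicate 1, the highest for Bax, had the lowest value of the 6 (0.00472).

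Of 15 other BCL2 family genes listed, 11 were tested, 1 rose and 3 fell (edgeR), or 36.4% against 40% of all genes, with a median log2 fold change of -0.24. Bcl2l2, which encodes the anti-apoptotic BCL-W, rose to 21.0 ± 2.17 CPM in the libraries labelled KO, against 17.3 ± 0.488 CPM in the expressing libraries (SD, n = 3 each; log2 fold change 0.28, SE 0.0910, edgeR adjusted p = 0.0362). That call was lost without KO replicate 2 (adjusted p = 0.154 in edgeR), KO replicate 3 (0.116) or expressing replicate 3 (0.0993). Bcl2l2 also shares 594 exonic bases with Gm20521, which lies on its own strand, and is uncertain to that extent. Bid, the BH3-only protein that caspase-8 cleaves, fell to 49.9 ± 1.37 CPM in the libraries labelled KO, against 60.7 ± 1.70 CPM in the expressing libraries (log2 fold change -0.28, SE 0.0605, edgeR adjusted p = 0.00498). It shares 628 exonic bases with Bcl2l13 on the opposite strand, and the strand setting of the counting is not given, so both are uncertain to that extent. Bcl2l14 had the largest change of the list but was scarce: 0.513 ± 0.0278 CPM in the libraries labelled KO and 1.90 ± 0.0880 CPM in the expressing libraries (log2 fold change -1.87, SE 0.182, edgeR adjusted p = 6.26e-05). Bcl2l12 fell narrowly (-0.33, SE 0.118, edgeR adjusted p = 0.0495), and this was lost with library totals (adjusted p = 0.169 in edgeR), with DESeq2 size factors (0.0588), with the replicate block (0.0578), with the filter at 1 CPM (0.0522), and without expressing replicates 1 (0.132) or 3 (0.0845) or any library labelled KO (0.117 to 0.132).

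The BH3-only genes Bad (log2 fold change -0.003, SE 0.160), Bik (-0.24, SE 0.152) and Hrk (-0.40, SE 0.155, edgeR adjusted p = 0.0646) did not pass, and neither did Bcl2l13 (0.07), Bcl2l15 (-0.35) or the mitophagy receptors Bnip3 (-0.05) and Bnip3l (0.12). Hrk passed in 5 of 14 alternatives, with the lowest edgeR adjusted p (0.022) without expressing replicate 1, and Bcl2l13 passed without that library too (0.12, edgeR adjusted p = 0.0186). Bcl2l10, an oocyte member, had counts of 2 to 4 in the libraries labelled KO and 2 to 14 in the expressing libraries and was not tested. The near-identical Bcl2a1 copies, known from blood cells, had at most 2 counts in any library: Bcl2a1b 2 in KO replicate 3, Bcl2a1d 1 in expressing replicate 3, and Bcl2a1a 0 in all 6. Whether reads that match more than 1 copy were counted is not given, so these low counts do not show low expression. A count of 3 is 0.0581 to 0.0860 CPM in the libraries labelled KO and 0.0680 to 0.0961 CPM in the expressing libraries, and such floors cover counting error only.

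Beyond the family, 8 of 28 genes for caspases, the apoptosome, their inhibitors and death receptors rose and 3 fell (edgeR). That is 39.3% called, against 40% of all genes, with a median log2 fold change of 0.04. Apaf1, the scaffold on which released cytochrome c assembles the apoptosome and a p53 target, rose to 158 ± 0.291 CPM in the libraries labelled KO, against 90.7 ± 3.64 CPM in the expressing libraries (SD, n = 3 each; log2 fold change 0.80, SE 0.0562, edgeR adjusted p = 1.04e-05). Tnfrsf10b, a receptor for the death ligand TRAIL, rose to 69.3 ± 3.17 CPM in the libraries labelled KO, against 41.2 ± 1.36 CPM in the expressing libraries (0.75, SE 0.0649). Dffb, the nuclease that cuts DNA in apoptosis, rose by 0.67 (SE 0.0715), and Casp12 by 1.73 (SE 0.247) at 1.34 CPM in the libraries labelled KO and 0.396 CPM in the expressing libraries.

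Of the decreases in that list, Aifm1, which encodes apoptosis-inducing factor, changed by -0.40 (log2, SE 0.0565) and Vdac1, a pore of the outer membrane, by -0.33 (SE 0.0502). The initiator Casp9, which APAF1 activates, did not pass at 16.6 ± 1.43 CPM in the libraries labelled KO and 18.2 ± 0.535 CPM in the expressing libraries (-0.14, SE 0.0868).

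Of 16 listed transcription factors known to act on the family, with the p53 inhibitors Mdm2 and Mdm4 among them, 15 were tested, 4 rose and 6 fell (edgeR; 66.7% called, against 40% of all genes), with a median log2 fold change of -0.04. Atf4, the stress factor that can raise Pmaip1, fell to 43.6 ± 2.21 CPM in the libraries labelled KO, against 211 ± 8.94 CPM in the expressing libraries (-2.27, SE 0.0655, edgeR adjusted p = 1.79e-07). Ddit3, which encodes CHOP, a known activator of Bcl2l11, changed by -1.27 (log2, SE 0.118), counted on the longer of 2 identifiers. All 105 exonic bases of the shorter lie in the longer on the same strand, so Ddit3 is uncertain to that extent too. Like every gene called higher in the libraries labelled KO, Pmaip1 was higher where Atf4 was lower. A link between Pmaip1 and Atf4 was not tested. Mycn (-0.79, SE 0.0523) and Myc (-0.48, SE 0.0813) fell, and Jun rose (0.61, SE 0.0968). Bcl2l12, Bcl2l14, Bad, Bnip3, Casp9, Ddit3 and Jun share exonic bases with a gene on the opposite strand and are uncertain to that extent. Bcl2l15 shares 569 exonic bases with Gm43064 on its own strand and is uncertain in the same way.

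Trp53 itself did not pass, at 358 ± 12.4 CPM in the libraries labelled KO and 332.5 ± 44.3 CPM in the expressing libraries (SD, n = 3 each; log2 fold change 0.11, SE 0.0877, edgeR adjusted p = 0.355). Without expressing replicate 1 it was 0.25 and passed (5.13e-07), as it did with the GC trend of each library removed (0.15, 0.0151). Mdm2, a p53 target whose product degrades p53, rose to 302 ± 10.7 CPM in the libraries labelled KO, against 184 ± 11.5 CPM in the expressing libraries (0.72, SE 0.0634, edgeR adjusted p = 3.85e-05).

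**Figure D4:**
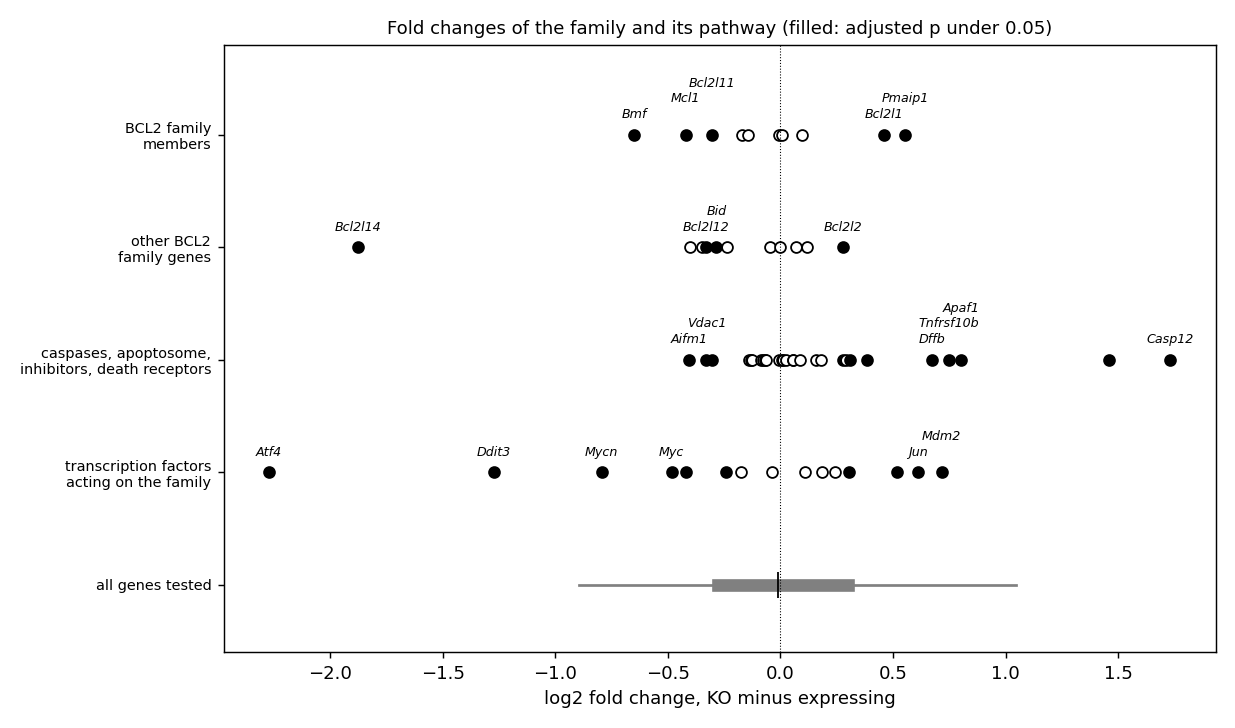
Log2 fold changes (libraries labelled KO minus expressing libraries) of the tested genes of each list, filled where the edgeR adjusted p is under 0.05, above the distribution of all tested genes (thin line, percentile 5 to 95; thick bar, interquartile range; tick, median at -0.01). The members lie between -0.65 and 0.56, while Atf4 (-2.27), Bcl2l14 (-1.87) and Casp12 (1.73) are the outermost points of the other lists.

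For the member with the smallest p in each class, the gene outside the family whose log2 CPM ran closest over the 6 libraries was named from 14049 genes of at least 1 CPM. It was Fbxl7 for Bcl2l1 (Pearson r = 0.994), Sox13 for Bmf (0.999) and Apba3 for Bax (0.999). These are descriptions over 6 libraries that fall into 2 groups, and 484, 1569 and 245 candidates exceeded an r of 0.95 for Bcl2l1, Bmf and Bax, so the nearest gene stands among many.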

How the data were processed

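Per the labels' protocols, 800 ng of RNA entered each stranded poly(A) library, amplified in 12 PCR cycles. The authors deposited whole-number read counts per Ensembl gene for 6 libraries, not normalized. Per the submitters' processing notes, the tools were HTSeq 0.6.1p1, STAR 2.5.3a, cutadapt 1.10 and bcl2fastq 2.20.0.422, and the build was mm10. The sources used here do not give their settings, the strand option or the annotation release. Symbols, positions and exon lengths came from GENCODE M21 of the same build by identifier (55141 of 55401 named).

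Counts were tested in R 4.3.3 with edgeR 4.0.16. Genes passing filterByExpr (minimum count 10, minimum total 15) numbered 17778. Libraries were scaled by TMM, the group was the only term, and p-values from glmQLFTest were adjusted (Benjamini-Hochberg) over these genes, with a threshold of 0.05. Standard errors and 95% intervals came from the test statistic. CPM uses TMM-scaled library sizes. The fitting script was tested on simulated data. Alternatives were DESeq2 1.42.0, its size factors, library totals, other filters on low counts, a replicate block, removal of the GC trend, and each library left out. P-values measure the spread between dishes, which may share a starting culture. The variance of each gene was moderated across genes, so a small p does not rest on the spread of that gene's own dishes alone.

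The members and lists were chosen with earlier results of these data known. The 10 members and every other BCL2 family gene are named, with up to 6 of the smallest p among the called genes of each further list plus Apaf1, Casp9, Trp53, Ddit3 and Atf4. Some genes of the caspase list are counted there but not reported by name here.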

Additional observations from a re-analysis of the deposited data

How the results depend on the processing

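The calls of Bcl2l1, Mcl1, Pmaip1 and Bmf held in each of 14 alternatives, and that of Bcl2l11 in 13, the exception being without KO replicate 2 (-0.26, adjusted p = 0.0517, edgeR). Over 29 called genes of the family and its lists, 388 of 406 alternative values kept direction and call, 18 lost the call and 0 changed direction. The labels do not say that replicate numbers pair the dishes. Deviations of same-numbered libraries correlated at 0.04, -0.07 and 0.08, and not every library correlated best with its own number. These values cannot exclude a pairing, since the 3 deviations of a group sum to 0 and expressing replicate 1 stood apart. A replicate block left the same 5 members called, with 3243 genes higher and 3401 lower instead of 3422 and 3695. Members called ranged over left-out libraries from 2 to 3 higher and from 2 to 4 lower, while 28.8% to 50.9% of all tested genes were called, with Bak1 added without expressing replicate 1 and Bax without expressing replicate 2. Changes near 0 changed sign. Bbc3 had a log2 fold change of 0.0085 with DESeq2 size factors, 0.0833 with library totals, 0.0003 without a filter, 0.0018 with at least 1 CPM in 3 libraries, 0.0077 by DESeq2, 0.0073 with the replicate block, 0.1049 with the GC trend removed and 0.1062 with both the block and that removal. Bad had 0.0101, 0.0842, 0.0029, 0.0034, 0.0081, 0.0119, 0.0889 and 0.0929 in the same order. Bnip3 was at 0.0456 with library totals. Over left-out libraries Bbc3 ran from -0.15 to 0.13, Bad from -0.17 to 0.18, Bak1 from -0.0699 to 0.15, Bok from -0.24 to 0.0221, Bnip3 from -0.12 to 0.0154, and Bnip3l from -0.0213 to 0.24. With the GC trend removed, with or without the replicate block, 5 of the caspase and death receptor list were lower instead of 3, and 7 transcription factors were higher instead of 4, while the share of all genes called was 53.3% (52.9% with the block) instead of 40%. Over left-out libraries these counts ran from 3 to 5 and from 4 to 7, and other BCL2 family genes higher ran from 0 to 2. With the longest transcript as length, the summed levels were 240.8 CPM per kilobase for anti-apoptotic members in the libraries labelled KO, 145.2 and 159.9 for effectors and 84.6 and 70.2 for BH3-only members in the libraries labelled KO and the expressing libraries. The cause was not tested in these cases. Bcl2l10 and the Bcl2a1 copies had too few counts to be tested, and the interval of Bcl2l15 (6 to 27 counts) was the widest of the tested family genes.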

Other observations

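Among death receptor genes and regulators beyond those named by rule, and chosen after their values were seen, Fas rose to 3.92 ± 0.515 CPM in the libraries labelled KO, against 1.39 ± 0.490 CPM in the expressing libraries (SD, n = 3 each; log2 fold change 1.46, SE 0.225, edgeR adjusted p = 8.69e-04). Fadd, the adaptor of this receptor, rose as well (0.38, SE 0.0891). Cflar, which encodes the caspase-8 inhibitor FLIP, rose narrowly (0.28, edgeR adjusted p = 0.0462), and this was lost without any 1 of the libraries labelled KO (0.103 to 0.135) or without expressing replicate 3 (0.0683). Foxo3 rose (0.30, SE 0.0541) and Foxo1 fell (-0.42, SE 0.0777), both forkhead factors that can activate Bcl2l11. Trp73, a relative of Trp53, rose to 12.3 ± 0.533 CPM in the libraries labelled KO, against 8.60 ± 1.19 CPM in the expressing libraries (0.52, SE 0.112, edgeR adjusted p = 0.00539). Fadd, Foxo1 and Trp73 share exonic bases with a gene on the opposite strand. Casp2 (-0.30) fell.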
